A study of Mus musculus with 8 samples.

Results

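Tissue factor, plasminogen activation and anticoagulant genes were followed in mouse fibroblastic reticular cells (FRCs), the contractile stromal cells that build the inner scaffold of lymph nodes. The set holds 10 genes of the 55367 in the count table: F3, Plat, Plau, Plaur, Thbd, Procr, Tfpi, Tfpi2, Anxa2 and S100a10. They were taken by gene symbol with earlier results of these data known. Counts of called members beside all genes are therefore not independent of that choice. F3 was chosen by its measured rise with both treatments, so that its values with tumor medium and with lactic acid are given as a description and carry no test. Of the 10 members, 9 reached 10 counts in 3 or more libraries, the minimum for testing, as did 12137 genes in all. Tfpi2 did not pass, which leaves 8 members besides F3 with a test.

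Tissue factor, the product of F3, is a membrane protein that binds coagulation factor VII and starts the extrinsic clotting cascade. Fibroblasts around vessels carry it, whereas cells in contact with blood usually do not. Its main inhibitor is tissue factor pathway inhibitor (Tfpi), and the thrombin it gives rise to is turned toward protein C by thrombomodulin (Thbd) and the endothelial protein C receptor (Procr). On the fibrinolytic side, the tissue-type (Plat) and urokinase-type (Plau) activators cut plasminogen to plasmin, Plaur anchors urokinase at the cell surface, and the complex of annexin A2 (Anxa2) with S100a10 docks plasminogen and Plat at the membrane.

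The data were 8 RNA libraries of 4 conditions, with 2 libraries per condition. The cells were 1 line, made from the lymph nodes of C57BL/6 mice with the p53 ER/ER alleles, and all were treated for 4 days in RPMI-based medium with 2% FBS and antibiotics, refreshed midway. The conditions were water as the vehicle of lactic acid, lactic acid (LA) at 15 mmol/L, control conditioned medium (CCM) taken from FRCs, and tumor-conditioned medium (TCM) taken from B16.F10 mouse melanoma cells. TCM was therefore set against CCM and LA against vehicle, to ask how far lactic acid and tumor medium move the same stromal genes.

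Total counts ran from 8232889 to 14107964 per library, and the floor of detection, set at 3 counts, lay at 0.212 to 0.355 CPM (counts scaled to a common library total). Replicates differed by more than counting error in each condition, most in TCM (chi-square per degree of freedom 19.8, against 3.28 to 7.32 in the others). Of 10 FRC markers 8 lay above the floor in some library. The chemokine genes of the list were absent or nearly so: Ccl21a had no count, and Ccl19 had 1 count in CCM replicate 1 only. Thy1 had 1 to 16 counts per library and Il7 had 5 to 26. Pdpn had group means of 126 to 186 CPM and Vcam1 of 142 to 207 CPM. Of 8 leukocyte markers 6 had no count anywhere, Ptprc among them, and the list summed to 0.917 to 1.9 CPM. Pecam1, a defining endothelial gene, had 4 to 9 counts per library, although the summed endothelial list reached 39.3 to 68.3 CPM through Emcn. Melanoma markers summed to 1.82 to 3.67 CPM, mostly Pmel and Mitf, and platelet markers to 12.6 to 18.4 CPM. The melanoma markers Tyrp1 (6 and 3 counts), Dct (1 and 1) and Sox10 (0 and 1) were counted in TCM only. Mlana had 1 count in LA replicate 2 and 1 in TCM replicate 1, and Tyr had none. The source of these few counts was not tested. Nothing beyond the word replicate in the labels separates the libraries of a condition, and P values measure the spread between such libraries. An exact permutation test of 2 against 2 libraries could not go below 0.333, so P values come from models fitted across many genes. The model was edgeR on 12137 genes unless DESeq2 or an alternative setting is named. In bulk RNA fewer expressing cells and less RNA per cell cannot be told apart.

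The stretches of 250 bases before the annotated starts of F3 and Plaur are shown because F3 is the gene the set was built around and Plaur is the member called higher with TCM whose stretch also ends before its first annotated exon. Both are RefSeq sequences on build GRCm38.p6, read 5′ to 3′ on the plus strand. Capitals mark GC boxes (GGGCGG or its reverse complement CCGCCC), the letters read by Sp-family factors. They also mark AP-1 sites (TGAGTCA or its reverse complement TGACTCA), the letters read by Fos and Jun family dimers.
F3, chr3:121723287-121723536: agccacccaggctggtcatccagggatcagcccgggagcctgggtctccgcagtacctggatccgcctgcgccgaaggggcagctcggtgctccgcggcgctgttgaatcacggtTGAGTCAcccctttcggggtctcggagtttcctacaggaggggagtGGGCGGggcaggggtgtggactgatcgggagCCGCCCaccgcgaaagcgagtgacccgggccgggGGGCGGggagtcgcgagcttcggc
Plaur, chr7:24462233-24462482: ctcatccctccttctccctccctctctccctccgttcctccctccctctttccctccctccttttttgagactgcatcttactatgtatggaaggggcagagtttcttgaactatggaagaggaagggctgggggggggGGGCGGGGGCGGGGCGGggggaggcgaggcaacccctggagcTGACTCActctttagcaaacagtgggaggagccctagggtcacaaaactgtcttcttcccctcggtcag
The F3 stretch held 1 AP-1 match, which began 135 bases before the start, and 3 GC boxes that began 89, 58 and 24 bases before it. The Plaur stretch held 1 AP-1 match at 69 bases and 3 GC boxes at 111, 105 and 100 bases, 2 of which overlap. Over 32851 promoter windows of the same length, 4.46% held an AP-1 match, 32.7% a GC box and 12.4% the TATA letters TATAAA. Neither stretch held TATAAA, which says only that these letters are not in the window. RefSeq windows were at hand for 6 of the 10 members. Among the other members with a window, Procr held an AP-1 match at 154 bases and Anxa2 one at 95 bases. A match of letters is a description and not a site.

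With TCM, Tfpi, Thbd and Procr, which restrain clotting, and the urokinase receptor rose over CCM, and tissue-type plasminogen activator fell. Of the 8 tested members other than F3, 4 were called higher and 1 lower. Called here means a log2 fold change (FC) of more than 0.39 up or down together with a P value under 0.05 after adjustment. Among all tested genes 19.1% were called in this comparison, 8.83% higher and 10.2% lower. The median log2 FC of the 8 members was 0.29, against 0.0003 for all tested genes. The 3 members not called were Plau, Anxa2 and S100a10. With vehicle in place of CCM as the control, Tfpi and Plat were called. Thbd, Procr and Plaur were not (log2 FC 0.13, 0.34 and 0.42).

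With LA, no member other than F3 was called against vehicle. The edgeR count was 0 of 8, DESeq2 also gave 0, and at an unadjusted P value under 0.05 edgeR gave 2, Plau and Procr. The share called among all tested genes was 2.55%, made up of 1.31% higher and 1.24% lower. The 8 log2 FC ran from −0.66 to −0.03 with a median of −0.28, against −0.0003 for all tested genes.

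**Figure D1:**
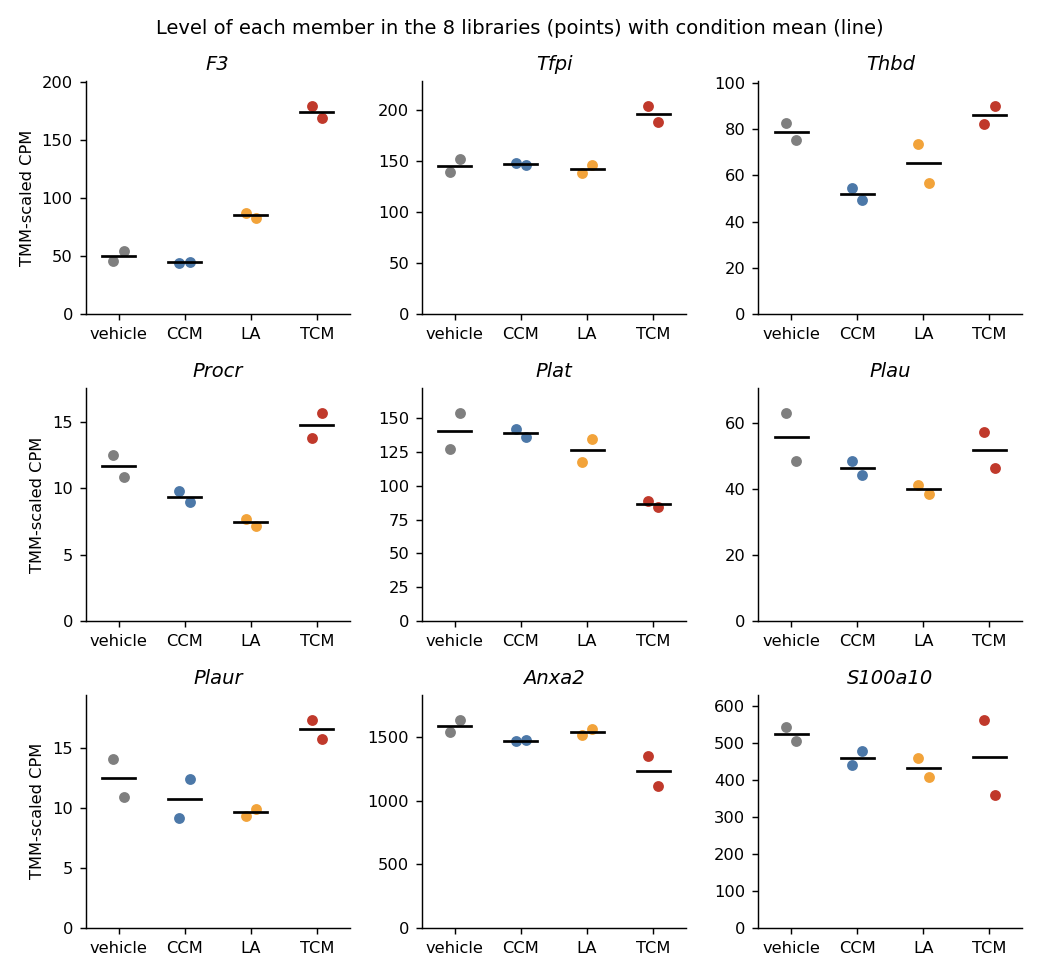
TMM-scaled CPM (linear axes from 0) of 9 members in each of the 8 libraries by condition, with points for libraries and black lines for condition means. F3 stands at 169 and 179 CPM in TCM and 83.0 and 86.9 CPM in LA, above every control library, while the 2 TCM libraries of S100a10 lie at 564 and 360 CPM.

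F3 (chr3:121723537-121735048, plus strand) was at 45.4 and 54.8 CPM in vehicle and at 44.3 and 45.0 CPM in CCM. It was at 86.9 and 83.0 CPM in LA and at 179 and 169 CPM in TCM. The 4 treated libraries lay above the 4 controls, and both TCM libraries lay above both LA libraries. The group means were 50.1 ± 6.66, 44.7 ± 0.527, 85.0 ± 2.82 and 174 ± 6.83 CPM for vehicle, CCM, LA and TCM (SD, n = 2). The fitted level was 3.89 times that of CCM with TCM (log2 FC 1.96) and 1.69 times that of vehicle with LA (log2 FC 0.76). Against the exchanged controls the log2 FC of F3 was 1.79 for TCM over vehicle and 0.93 for LA over CCM.

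Tfpi, which blocks the complex of tissue factor with factor VIIa, lies at chr2:84432855-84476775 on the minus strand. Its libraries stood at 139 and 152 CPM in vehicle, 148 and 146 in CCM, 138 and 146 in LA, and 204 and 188 in TCM. The 6 libraries without TCM overlapped each other, and both TCM libraries lay above all of them. Tfpi rose 1.33-fold with TCM (log2 FC 0.42, SE 0.0930, edgeR adjusted P = 0.00912), and it was also called against vehicle (log2 FC 0.43, adjusted P = 0.00849). This log2 FC sits close to the call threshold of 0.39, and it was not called without TMM scaling (0.28), without TCM replicate 1 (0.35), or without CCM replicate 1 (0.42, adjusted P = 0.0789) or 2 (0.40, adjusted P = 0.0860). With LA its log2 FC was −0.03, with a 95% interval from −0.24 to 0.17.

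The paralog Tfpi2 (chr6:3962595-3988919, minus strand) was barely counted. It had 0 and 0 counts in vehicle, 0 and 3 in CCM, 0 and 1 in LA, and 2 and 0 in TCM, all at or under the floor, so that no fold is given. Any difference in Tfpi2 was not detectable at this depth.

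Because F3 and Tfpi can be compared within each library, their ratio does not rest on scaling between libraries. Per exon base, F3 over Tfpi was 0.706 and 0.779 in vehicle, 0.646 and 0.666 in CCM, 1.36 and 1.23 in LA, and 1.89 and 1.94 in TCM. The 4 treated libraries lay above the 4 controls. This restates the rise by which F3 was chosen. Which of both genes stands higher depends on the exon length used, 2527 bases for F3 and 5463 for Tfpi, since F3 had fewer counts than Tfpi in all 8 libraries.

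Thbd (chr2:148404466-148408188, minus strand), the thrombin receptor that redirects thrombin to protein C, stood at 82.5 and 75.2 CPM in vehicle and 54.6 and 49.4 CPM in CCM. In LA it was at 73.8 and 56.6 CPM and in TCM at 82.3 and 90.0 CPM. CCM was the low condition: its 2 libraries lay under the other 6, and TCM overlapped vehicle. Thbd rose with TCM relative to CCM (log2 FC 0.73, SE 0.132, edgeR adjusted P = 0.00282). With vehicle as the control, a comparison that shares the TCM libraries, its log2 FC was 0.13 (adjusted P = 0.535). CCM over vehicle gave −0.60 (adjusted P = 0.0536), which edgeR did not call and DESeq2 did (adjusted P = 0.0104). In that comparison of the controls edgeR called 0 of 8 members and 1.3% of all tested genes, and at an unadjusted P value under 0.05 it gave 1, Thbd.

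Procr, the receptor that presents protein C to thrombomodulin-bound thrombin, lies at chr2:155751117-155755471 on the plus strand. It was a low gene, at 12.5 and 10.9 CPM in vehicle, 9.78 and 8.99 in CCM, 7.69 and 7.20 in LA, and 13.8 and 15.7 in TCM. The libraries of each condition stood apart from those of every other, in the order LA, CCM, vehicle, TCM. It rose with TCM over CCM (log2 FC 0.65, SE 0.156, edgeR adjusted P = 0.0126), whereas LA over vehicle gave −0.66 (SE 0.164, adjusted P = 0.0673), which was not called. Over vehicle, TCM gave 0.34 (adjusted P = 0.156). Leaving out either CCM library ended the TCM call (0.71, adjusted P = 0.0659, without replicate 1, and 0.59, adjusted P = 0.105, without replicate 2). The LA value was called when either TCM library was left out of the shared fit (adjusted P = 0.0276 and 0.0278). The ligand of this receptor, protein C (Proc), had no count in any library.

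Since Thbd, Procr and Tfpi are also endothelial genes, the endothelial marker list was set beside them. Its summed level was 63.5 to 64.8 CPM in CCM, 48.8 to 51.6 CPM in TCM, 39.3 to 47.7 CPM in vehicle and 52.9 to 68.3 CPM in LA. It was lower in TCM than in CCM and higher in TCM than in vehicle, and most of it was Emcn (58.7 and 60.5 CPM in CCM, 46.0 and 49.0 in TCM). Pecam1 and Kdr had 3 to 8 counts in CCM and 4 to 12 in TCM. Emcn and Tek were the endothelial markers with enough counts to be tested. Tek fell from 37 and 28 counts in CCM to 9 and 6 in TCM (log2 FC −1.84, edgeR adjusted P = 0.028), and Emcn was not called. The part of endothelial transcripts in the values of Thbd, Procr and Tfpi was not tested. Of its 8 genes 5 lay above the floor in some library and 1 was at 0 throughout.

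Plat (chr8:22757727-22782844, plus strand), the tissue-type activator, was at 127 and 154 CPM in vehicle, 142 and 136 in CCM, 118 and 135 in LA, and 89.0 and 84.5 in TCM. The TCM libraries lay under all others. Vehicle overlapped both CCM and LA, and both LA libraries lay just under both CCM libraries. Plat fell with TCM to 0.625 of the CCM level (log2 FC −0.68, SE 0.114, edgeR adjusted P = 0.00173). The value against vehicle was −0.69 (adjusted P = 0.00176). Among all tested genes 8.58% were called higher and 8.9% lower in TCM against vehicle. With LA it was −0.15, with an interval from −0.40 to 0.10.

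Plau (chr14:20836660-20843385, plus strand), the urokinase-type activator, stood at 63.2 and 48.7 CPM in vehicle, 48.5 and 44.4 in CCM, 41.3 and 38.7 in LA, and 57.3 and 46.5 in TCM. LA libraries were the lowest, and TCM overlapped both controls. The log2 FC was 0.16 for TCM over CCM (interval −0.16 to 0.48, adjusted P = 0.472) and −0.49 for LA over vehicle (interval −0.80 to −0.17, adjusted P = 0.121). Neither was called, although the LA value was when either TCM library was left out of the shared fit (adjusted P = 0.0264 in both). Within a library, Plat over Plau per exon base was 0.589 and 0.689 in TCM and 0.763 to 1.33 in the other 6 libraries, so the share of tissue-type transcripts in TCM was below that of every other library.

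Plaur (chr7:24462484-24475968, plus strand), the urokinase receptor, was at 14.1 and 10.9 CPM in vehicle, 9.19 and 12.4 in CCM, 9.35 and 9.95 in LA, and 17.4 and 15.8 in TCM. Both TCM libraries were above the other 6. CCM overlapped vehicle and LA, and both LA libraries lay under both vehicle libraries. It rose 1.54-fold with TCM over CCM (log2 FC 0.63, SE 0.182, edgeR adjusted P = 0.0310). The call was not made against vehicle (0.42, adjusted P = 0.136) and was lost without TMM scaling (0.49, adjusted P = 0.0767), with the compared libraries alone (0.63, adjusted P = 0.0612), without CCM replicate 1 (0.42, adjusted P = 0.278) and without TCM replicate 1 (0.56, adjusted P = 0.0781). For LA the log2 FC was −0.36, with an interval from −0.78 to 0.06.

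Anxa2 (chr9:69453620-69491795, plus strand) and S100a10 (chr3:93555080-93564643, plus strand), the subunits of the plasminogen-docking heterotetramer, were the most abundant members by far. Anxa2 had group means of 1589 ± 70.3 CPM in vehicle, 1474 ± 9.96 in CCM, 1542 ± 35.0 in LA and 1238 ± 165 in TCM. Its TCM libraries, at 1121 and 1355 CPM, were the lowest of the 8, yet the log2 FC of −0.25 was not called (SE 0.114, edgeR adjusted P = 0.145). The call turned on scaling and on 1 library: without TMM the value was −0.39 (adjusted P = 0.0255), and without TCM replicate 1 it was −0.39 (adjusted P = 0.00989). Anxa2 overlaps the miRNA gene Mir3109 and the antisense gene Gm16144, and whether the counting used strand is not given in the sources used here, so part of its count may belong to them.

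S100a10 had means of 525 ± 28.4 CPM in vehicle, 460 ± 25.9 in CCM, 434 ± 34.9 in LA and 462 ± 144 in TCM. The TCM libraries fell on both sides of all other libraries, at 564 and 360 CPM, and the log2 FC of 0.01 (interval −0.37 to 0.38) was 0.30 or −0.35 when 1 or the other was left out. With LA the value was −0.27, with an interval from −0.65 to 0.10, while Anxa2 had −0.04 with an interval from −0.29 to 0.21. Together Anxa2 and S100a10 made up 80.6% to 81.6% of the summed CPM of the 10 members in the 6 libraries without TCM, and 74.9% and 70.9% in TCM. That sum includes F3, so part of the lower share in TCM restates the rise by which F3 was chosen.

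**Figure D2:**
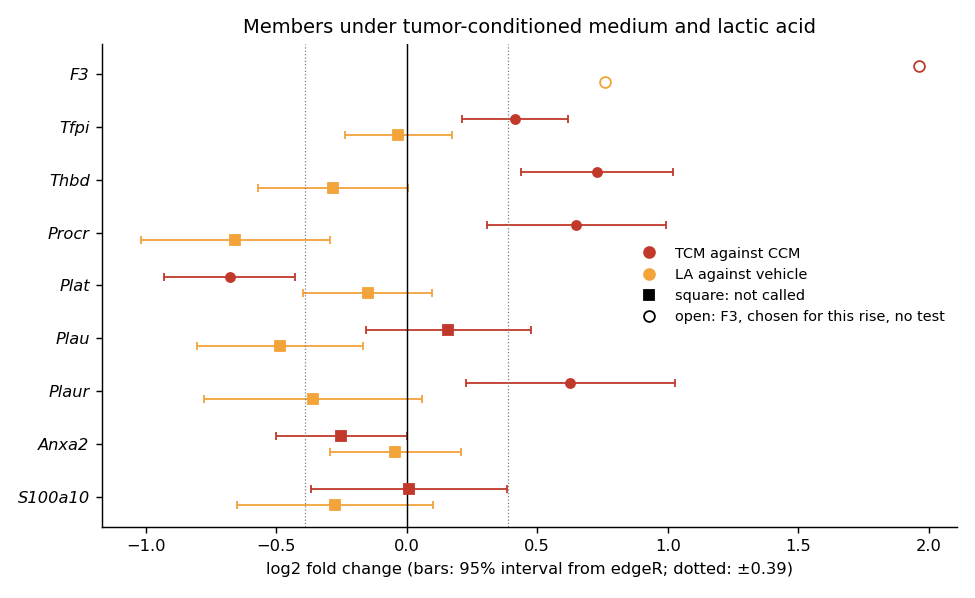
Log2 FC of 9 members (x axis) for TCM against CCM and LA against vehicle, with 95% intervals from edgeR, circles for called values and squares for values not called. Tfpi, Thbd, Procr and Plaur lie above 0 and Plat below 0 with TCM, no LA value is called, and F3 (open circles at 1.96 and 0.76) has no interval because it was chosen for these values.

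The effects of TCM and of LA on the same gene were compared by the difference of both log2 FC in 1 model. It was called for 3 of the 8 members, all in the direction of a larger value with TCM, and 4.45% of all tested genes were called in that direction and 6% in the other. The difference was 1.31 for Procr (SE 0.226, edgeR adjusted P = 0.00368), 1.01 for Thbd (SE 0.186, adjusted P = 0.00542) and 0.99 for Plaur (SE 0.263, adjusted P = 0.0362). Tfpi (0.45, adjusted P = 0.0544), Plat (−0.53, adjusted P = 0.0587) and Plau (0.65, adjusted P = 0.0712) were not called. Plaur lost the call without TMM scaling (0.84), vehicle replicate 1 (0.80), CCM replicate 1 (0.78) or either LA library (0.95 and 1.03). Plat gained it without TMM scaling (−0.68), the filter on low counts (−0.53), vehicle replicate 2 (−0.67) or either TCM library (−0.57 and −0.49). Plau gained it without the filter (0.64), vehicle replicate 2 (0.83) or TCM replicate 2 (0.79), and with the replicate block (0.63). Without TCM replicate 2 Tfpi (0.51) and S100a10 (0.57) were called too, and Tfpi was also called with RLE size factors (0.46). The difference includes the gap between the controls, which was −0.60 for Thbd and −0.31 for Procr (CCM over vehicle, not called by edgeR). LA against CCM, which shares the LA libraries, had 0 of 8 members called by edgeR and 0.626% of all tested genes, with log2 FC of −0.34 for Procr and 0.32 for Thbd.

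Divided by exon length, the members fell into 3 tiers. In vehicle, S100a10 (416 to 449 CPM per kb) and Anxa2 (413 to 439) overlapped at the top. A middle tier of Tfpi (25.4 to 27.8), Plau (20.6 to 26.7), Plat (20.4 to 24.6), Thbd (20.2 to 22.2) and F3 (17.9 to 21.7) followed, in which each neighbor overlapped the next. Procr (5.37 to 6.16) and Plaur (4.17 to 5.38) formed the low tier and overlapped by a narrow margin. In TCM the middle tier spread out: F3 stood at 66.9 and 70.7 CPM per kb, then Tfpi at 34.4 and 37.4. Thbd (22.1 and 24.2) and Plau (19.6 and 24.2) overlapped, and Plat was last of this tier at 13.5 and 14.3. In LA F3 also led it, at 32.8 and 34.4 CPM per kb against 25.3 and 26.8 for Tfpi. The place of F3 in TCM and LA restates the rise by which it was chosen.

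Of 7 listed inhibitors of plasminogen activation and plasmin 1 was tested, and it fell with TCM. Serpine2, which inhibits thrombin as well as plasminogen activators, stood at 113 and 140 CPM in vehicle, 151 and 138 in CCM, 88.6 and 107 in LA, and 49.0 and 47.7 in TCM. Both TCM libraries lay under all others, and both LA libraries lay under both vehicle libraries. The log2 FC with TCM over CCM was −1.58 (SE 0.131, edgeR adjusted P = 2.61e-05), and it was called in all 15 alternatives that kept the call thresholds. With LA it was −0.37 and not called (adjusted P = 0.183), and the difference between TCM and LA effects was called (−1.21, adjusted P = 0.00143).

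Urokinase and its receptor were also compared within each library. Plau over Plaur per exon base was 3.65 and 3.25 in TCM and 3.95 to 5.83 in the other 6 libraries, and the CCM libraries alone spanned 3.95 to 5.83. This ratio was described and not tested.

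**Figure D3:**
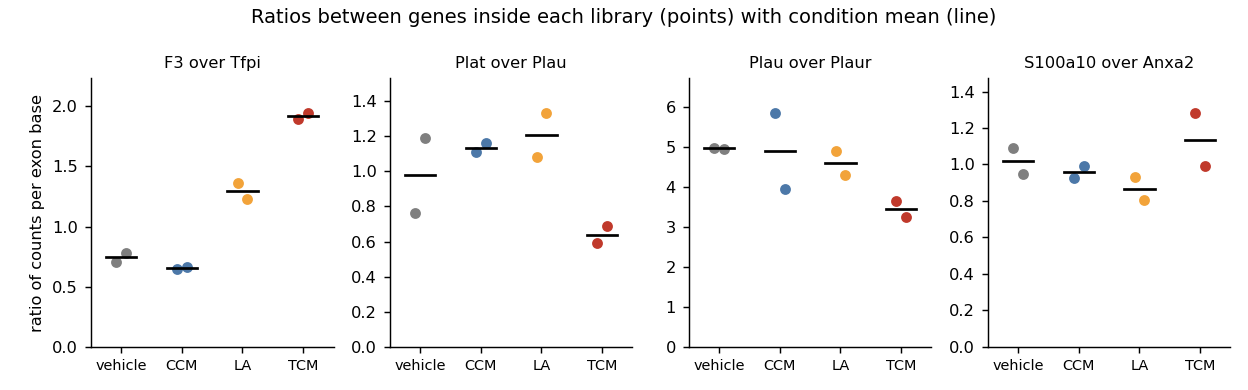
Ratios of counts per exon base between pairs of genes inside each of the 8 libraries (linear axes from 0), with points for libraries and lines for condition means. F3 over Tfpi is 1.89 and 1.94 in TCM against 0.646 to 0.779 in the controls, and Plat over Plau is 0.589 and 0.689 in TCM against 0.763 to 1.33 elsewhere.

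Few partners of tissue factor were detected in these cells. The transcripts of prothrombin (F2), factor VII (F7) and factor X (F10) were at or under the floor of 3 counts in every library. Of 20 genes for coagulation factors and for their processing or secretion 5 were tested. Only F8 among them codes for a coagulation factor, and the others were the processing or secretion genes Ggcx, Vkorc1, Lman1 and Mcfd2. Of these 5 F8, the cofactor of factor IX, was the one called with TCM, and it fell from 6.58 and 6.12 CPM in CCM to 2.53 and 3.82 CPM in TCM (0.499 of the CCM level, SE 0.239 on the log2 scale, edgeR adjusted P = 0.0122), a call lost without CCM replicate 1 (−0.95, adjusted P = 0.0866) or TCM replicate 1 (−0.73, adjusted P = 0.0689). Of 4 protease-activated receptors, F2r, which thrombin cleaves, was tested. It had 456 and 422 CPM in CCM and 633 and 661 CPM in TCM (log2 FC 0.56, SE 0.173, adjusted P = 0.0404), a call lost without TMM scaling (0.42, adjusted P = 0.0825) and without any 1 of the 4 CCM and TCM libraries (0.50 to 0.61). Among 12 other anticoagulant genes 4 were tested, and edgeR called 0 with TCM and 0 with LA, as did DESeq2, with 0 at an unadjusted P value under 0.05.

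Plasminogen itself (Plg) had no count. Of 10 genes listed for plasminogen and for receptors of plasminogen or its activators, 7 were tested with TCM. Among them 1 rose and 1 fell, beside 8.83% and 10.2% of all tested genes. Eno1, an enolase that also binds plasminogen at the cell surface, had 402 and 406 CPM in CCM and 684 and 610 CPM in TCM (log2 FC 0.68, SE 0.101, edgeR adjusted P = 0.000760). Its count is uncertain, because a near-identical gene copy can share its reads. Itgb3, an integrin chain that partners the urokinase receptor, had 37.4 and 30.8 CPM in CCM and 15.5 and 15.1 CPM in TCM (log2 FC −1.16, SE 0.206, adjusted P = 0.00251).

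Several relatives of Anxa2 and S100a10 moved with TCM. Of 16 other annexin and S100 genes, counted with the S100a10 partner Ahnak, 6 rose and 1 fell, with a median log2 FC of 0.40, against 0.0003 for all tested genes, of which 8.83% rose and 10.2% fell. Of the 6, S100a16 lost the call in 9 of 15 alternatives, and Ahnak and Anxa4 in 2 each. Anxa1, an annexin known for its part in resolving inflammation, went from 749 and 810 CPM in CCM to 1380 and 1130 CPM in TCM (log2 FC 0.68, edgeR adjusted P = 0.00174). Anxa3 had a log2 FC of 0.67 (adjusted P = 0.00192) and Anxa11 of 0.71 (adjusted P = 0.00360). S100b, a calcium-binding protein best known from glia, fell from 5.90 and 4.59 CPM to 1.05 and 1.2 CPM (log2 FC −2.21, adjusted P = 0.00152). Without TMM scaling the counts were 4 higher and 1 lower. With LA the list held 1 call, Anxa8, which fell from 14.9 and 15.0 CPM in vehicle to 5.21 and 6.07 CPM (log2 FC −1.39, adjusted P = 0.00290). Anxa8 was also lower in CCM than in vehicle (log2 FC −0.96, adjusted P = 0.0287).

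The list of transcription factors that bind tissue factor and thrombomodulin promoters, counted with the NF-kB inhibitor Nfkbia, had 17 tested genes. Of these, 2 rose and 2 fell with TCM, with a median log2 FC of −0.06. The 4 calls stand beside a share of 19.1% called among all tested genes. With LA edgeR called 0 of them, DESeq2 also 0, and 2 had an unadjusted P value under 0.05. Fosl2, an AP-1 subunit, had 61.7 and 58.5 CPM in CCM and 112 and 152 CPM in TCM (log2 FC 1.13, edgeR adjusted P = 0.000269). Jun, another AP-1 subunit, fell from 56.7 and 54.1 CPM to 35.5 and 34.3 CPM (log2 FC −0.67, adjusted P = 0.00309). The other 5 Fos and Jun family genes of the list, Fos, Fosb, Fosl1, Junb and Jund, were not called, at −0.63 to 0.40. Klf6 rose (0.69, adjusted P = 0.000321). Egr1, an immediate early factor that binds GC-rich letters, fell (−1.31, adjusted P = 0.0150), although its 2 vehicle libraries stood at 311 and 165 CPM and the call was lost without a filter on low counts (−1.31, adjusted P = 0.278), without CCM replicate 1 (−1.24, adjusted P = 0.0726) and without TCM replicate 1 (−1.27, adjusted P = 0.338) or 2 (−1.36, adjusted P = 0.286). Without TMM scaling 2 rose and 4 fell. F8, Anxa1, Anxa3, Anxa8, Anxa11, S100b and Jun overlap another annotated gene, and the share of their counts that belongs to it was not tested.

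**Figure D4:**
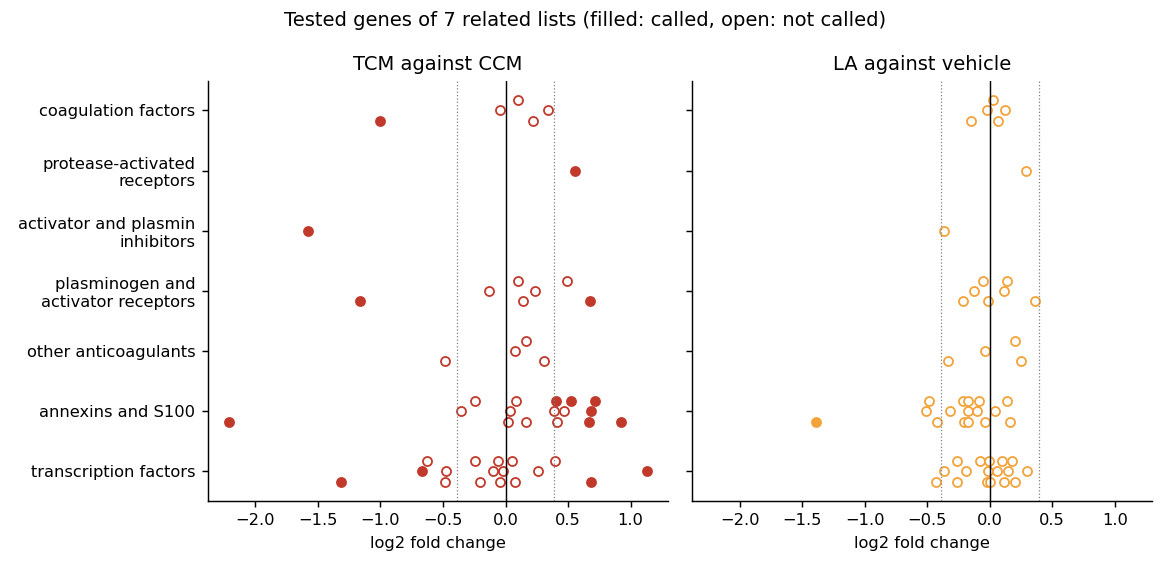
Log2 FC (x axis) of the tested genes in 7 related lists, with TCM against CCM on the left and LA against vehicle on the right, filled points for called genes and dotted lines at 0.39 either way. With TCM calls fall on both sides of 0 among plasminogen and activator receptors, annexins and S100 genes, and transcription factors. With LA the single filled point is Anxa8 at −1.39.

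The genes whose profile over the 8 libraries was closest to that of F3 were Abi3bp, Npr3, Prkar1b, Epha1 and Col20a1. Closeness was the root mean square difference between centered log2 CPM profiles, which was 0.144 for Abi3bp, 0.185 for Npr3, 0.229 for Prkar1b, 0.242 for Epha1 and 0.260 for Col20a1, against a median of 0.798 over all tested genes. Abi3bp, a matrix protein, had mean levels of 24.2, 23.4, 48.4 and 85.9 CPM in vehicle, CCM, LA and TCM. Npr3, the clearance receptor of natriuretic peptides, had 458, 355, 586 and 1220 CPM. The other 3 lay under 10 CPM in every condition, and all of these but Abi3bp overlap another annotated gene. Of the members, Tfpi was closest to F3, at 0.625 and rank 1042 of 12136. A gene with no change over the libraries would lie at 0.779 from F3.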

How the data were processed

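The authors sequenced directional poly(A) libraries, aligned the reads with STAR 2.7.0a to GRCm38 (Ensembl version 100) and counted them per gene with featureCounts (Subread 2.0.1, per the submitters' processing notes). The deposited values used here are raw counts. A second deposited table was not used, and 0 columns were left unused.

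Conditions were taken from the labels. In R 4.3.3, genes that reached 10 counts in 3 or more libraries were scaled by TMM and tested with edgeR 4.0.16 (quasi-likelihood, robust, all 8 libraries in the fit, Benjamini-Hochberg adjustment over 12137 genes, 2-sided). DESeq2 1.42.0 was an alternative. SE was the size of the log2 FC divided by the square root of F. CPM use TMM-scaled totals and SD is over 2 libraries. Intervals and floors cover no error of PCR. The script was tested on simulated counts. Gene positions and exon lengths came from GENCODE on GRCm38, promoters from RefSeq.

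Members and lists were chosen with earlier results of these data known. Named from the lists were at most 4 called genes per comparison by adjusted P value, and the 5 genes closest to F3. Other annexin, S100, Fos and Jun family genes, Ahnak, Emcn, Kdr and Tek were named after their values were seen. So were Ccl19, Ccl21a, Thy1, Il7, Ggcx, Vkorc1, Lman1, Mcfd2, Nfkbia and the melanoma markers. Results of 1 gene outside the set are not reported here.

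Replicate numbers were not taken as pairs. Alternatives were another scaling, filter, tool, fold threshold, sample set or replicate block, and each library left out. The other control and a crossed block were added after the data were seen.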

Additional observations from a re-analysis of the deposited data

Results flagged for a closer look

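For 3 members the effects of TCM and LA differed by the test of the difference itself (edgeR, TCM over CCM minus LA over vehicle, log2). Procr had 1.31, with a log2 FC of 0.65 with TCM and −0.66 with LA, and both TCM libraries above both CCM libraries and both LA libraries below both vehicle libraries. Thbd had 1.01, from 0.73 and −0.28, and Plaur had 0.985, from 0.63 and −0.36. Each difference includes the gap between the controls. CCM over vehicle was −0.60 for Thbd, −0.31 for Procr and −0.21 for Plaur, none called by edgeR. Against vehicle, TCM gave 0.13 for Thbd, 0.34 for Procr and 0.42 for Plaur, none called. The Plaur difference kept its call in 9 of 14 alternatives.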

How the results depend on the processing

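Plat and Thbd were called with TCM over CCM in all 15 alternatives tried with the call thresholds kept, Plat at −0.82 to −0.64 and Thbd at 0.59 to 0.80. The 5 members called with TCM became 1 at a fold threshold of 0.68 (Thbd). Against vehicle, the other control added after the data were seen, they became 2, Plat and Tfpi. This control was not among the 15 alternatives, and with it Thbd (0.13), Procr (0.34) and Plaur (0.42) were not called. Leaving out 1 library gave 2 to 5, with 2 without CCM replicate 1 and 3 without CCM replicate 2. Without TMM, which shifts the median of all genes by −0.14, 2 members were higher and 2 lower. For LA the count of 0 became 2 without a filter on low counts and 0 to 2 without 1 library, where 2 (Plau and Procr) came without either TCM library. The 3 called differences became 5 without the filter and 2 to 7 without 1 library, with 5 without vehicle replicate 2 and 7 without TCM replicate 2. For CCM against vehicle the count of 0 became 1, Thbd, with DESeq2, without the filter, with the compared libraries alone and with the replicate block, and 0 to 1 without 1 library. The causes were not tested. A lone remaining library was assumed to vary like the other conditions.

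Same-numbered libraries of vehicle and LA deviated together (correlation 0.325). The other 5 pairs of conditions had correlations from −0.217 to 0.0995, and the numbers were not taken as pairs. The replicate block covered all 8 libraries and was not fitted to vehicle and LA alone, so pairing within the LA comparison was not tested. With the replicate block 5 members were called with TCM, 0 with LA, 4 for the difference and 1 for CCM against vehicle, and with CCM numbers crossed 5 were called with TCM. No direction of a called member was reversed.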
